A study of Mus musculus with 4 samples.

Results

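The genes described here are 9 leukocyte adhesion molecules and integrins, Icam1, Icam2, Vcam1, Itgal, Itgam, Itgax, Itgb2, Itgav and Itgb1. They were chosen by name, with earlier results of these data known, and were found by gene symbol through their Ensembl identifiers. They are 9 of the 46603 genes in the table of counts, and all 9 were among the 13001 genes kept by the filter on low counts. No member differed between the groups at an adjusted p-value under 0.05, while the levels of Icam1 and Vcam1 were higher, and that of Icam2 lower, in both libraries labelled HuRhKO than in both control libraries. Of all genes tested, 19.3% were higher and 18.8% lower in this way.

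Leukocytes leave the blood by binding adhesion molecules on the vessel wall with integrins, which are receptors made of an alpha and a beta subunit. ICAM-1 and ICAM-2 bind the integrin LFA-1, made of Itgal and Itgb2, and ICAM-1 also binds Mac-1, made of Itgam and Itgb2, while VCAM-1 binds alpha 4 integrins that pair with Itgb1. In the liver, sinusoidal endothelial cells and resident macrophages carry several of these molecules, and inflammatory cytokines raise ICAM-1 and VCAM-1 on endothelium in many tissues.

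Total liver RNA was sequenced from 4 mice, all labelled male, control mice 1 and 2 and mice 3 and 4 labelled HuRhKO. All 4 mice carried HuRflox/flox on the C57BL/6 J background and ate the WDSW, a Western diet with fructose and glucose in the drinking water, during 4 weeks. Their ages were matched but not stated. The HuRhKO mice received AAV8-TBGP-Cre, in which the hepatocyte promoter of thyroxine-binding globulin drives the Cre recombinase, and the control mice received AAV8-TBGP-GFP, so the comparison asks what differs with hepatocyte deletion of HuR, an RNA-binding protein encoded by Elavl1. The control and Cre vectors came from different suppliers, and deletion by this promoter concerns hepatocytes, whereas the members are read from the whole liver. In bulk liver RNA, fewer cells of a type and less RNA per cell cannot be told apart.

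Elavl1 checks the labels, and its counts in these 4 libraries went against them. It had 377 and 347 counts in control mice 1 and 2, and 541 and 648 counts in mice 3 and 4, which is 27.1 ± 1.74 against 36.1 ± 2.36 CPM, the counts scaled to a common library size with TMM factors (SD, n = 2 in each group). The log2 fold change was 0.41 ± 0.14 (SE), with an adjusted p-value of 0.545 in the edgeR quasi-likelihood test. Counts per gene do not show which exons the reads came from, so transcripts without the floxed part could not be told from whole ones. Ccl25, which overlaps Elavl1 on the other strand, had 46 and 57 counts in the controls and 33 and 50 in mice 3 and 4. The paper reported significantly lower HuR mRNA and protein in livers of HuRhKO mice, and staining that showed the deletion in hepatocytes. It does not say whether these 4 mice were among those measured. Because of the Elavl1 counts, mice 3 and 4 are called the libraries labelled HuRhKO.

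The libraries held between 13032095 and 19715577 counts, and the largest, from mouse 4, held 1.51 times the counts of the smallest. No pair of libraries was alike within sampling noise, as repeat deposits of a library would be, with chi-square statistics divided by their degrees of freedom of 15.7 to 24.1. The summed hepatocyte markers, led by Alb and Apoa1, lay between 64372 and 72360 CPM, and the samples held the transcripts of liver. The library of control mouse 1 stood apart in the cholangiocyte markers, whose sum was 24.5 CPM against 5.82, 5.72 and 8.92 CPM in mice 2, 3 and 4. It had 162 counts of Krt19, a keratin of bile ducts, where the other mice had 5, 7 and 34.

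The promoters of Icam1, Itgam and Itgb1 are shown because Icam1 had the largest difference between the groups of the 9 genes, and Itgam and Itgb1 had the lowest and the highest level per length. Of the 9 members, 5 had an entry in the RefSeq promoter sequences of build GRCm38.p6, and each window holds the 250 bases before the annotated start, all on the plus strand and written 5′ to 3′. The windows are chr9:21015690-21015939 for Icam1, chr7:128062390-128062639 for Itgam and chr8:128685404-128685653 for Itgb1. Capitals mark matches, on either strand, to the NF-kB consensus with its first base left free and to TTCCNGGAA, a form bound by STAT factors, in Icam1. In Itgam they mark GAGGAA, the core bound by the myeloid factor PU.1, and in Itgb1 GGGCGG, the core bound by Sp1.
Icam1: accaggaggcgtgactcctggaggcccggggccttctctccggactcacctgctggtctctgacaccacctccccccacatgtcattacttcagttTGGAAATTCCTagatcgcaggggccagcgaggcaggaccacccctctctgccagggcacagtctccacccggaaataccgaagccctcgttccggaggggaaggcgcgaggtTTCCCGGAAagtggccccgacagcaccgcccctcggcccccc
Itgam: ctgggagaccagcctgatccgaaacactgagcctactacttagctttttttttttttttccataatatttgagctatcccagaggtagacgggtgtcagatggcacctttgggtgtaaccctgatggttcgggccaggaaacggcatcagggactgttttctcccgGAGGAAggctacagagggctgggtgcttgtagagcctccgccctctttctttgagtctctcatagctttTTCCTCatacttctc
Itgb1: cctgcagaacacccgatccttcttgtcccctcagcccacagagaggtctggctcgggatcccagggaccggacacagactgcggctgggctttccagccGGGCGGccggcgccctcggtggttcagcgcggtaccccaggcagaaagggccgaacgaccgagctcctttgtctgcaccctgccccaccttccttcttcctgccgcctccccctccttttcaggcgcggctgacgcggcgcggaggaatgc
The Icam1 window holds an NF-kB match from 154 to 145 bases before the start, with a second match overlapping it at 153 to 144, and the TTCCNGGAA match from 42 to 34. The NF-kB letters are in 22.9% of the 32851 promoter windows of this length and TTCCNGGAA in 0.913%. The Itgam window holds GAGGAA at 84 to 79 and, on the other strand, at 15 to 10, and 23.3% of all windows hold it. The Itgb1 window holds GGGCGG at 151 to 146, and 32.7% of all windows hold it. Matches to these motifs left in lower case were GGGCGG on the other strand in Icam1 (17 to 12) and Itgam (47 to 42), and an NF-kB match (165 to 156) and GAGGAA (9 to 4) in Itgb1. The windows not shown are those of Itgav and Itgax. That of Itgav held GAGGAA at 218 to 213 and, on the other strand, at 7 to 2, and no GGGCGG. That of Itgax held no match to these motifs. The windows of Itgb1 and Icam1 were richer in G and C, at 68.0% and 65.2% with 21 and 15 CpG pairs, than that of Itgam, at 49.6% with 6, where the median of all windows was 52.4% and 6. These matches are of letters, and binding was not measured.

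Of the vessel-wall ligands, Icam1 and Vcam1 were higher in the libraries labelled HuRhKO and Icam2 was not. Icam1 (ENSMUSG00000037405), at chr9:21015985-21028817 on the plus strand of GRCm38 in the GENCODE M21 annotation, encodes ICAM-1, the ligand of LFA-1 and Mac-1 that cytokines induce. It had 89 and 106 counts in control mice 1 and 2, and 183 and 198 counts in mice 3 and 4. On the scale of CPM these were 6.70 and 7.91 in the controls and 12.8 and 10.5 in mice 3 and 4. Both libraries labelled HuRhKO were above both controls, and mouse 3 had the highest level. The group means were 7.31 ± 0.860 and 11.6 ± 1.59 CPM (SD, n = 2 in each), a difference of 58.8%. The log2 fold change was 0.67 ± 0.20 (SE), with a 95% interval from 0.21 to 1.12. In the edgeR quasi-likelihood test the unadjusted p-value was 0.00933 and the adjusted p-value 0.472. Without mouse 3, the log2 fold change was 0.51 and the edgeR unadjusted p-value 0.0739. Without control mouse 1, the library apart in bile duct markers, the log2 fold change was 0.54 and the edgeR unadjusted p-value 0.0489. The annotation places an antisense gene, Gm47079, over exons of Icam1, and it has no entry in the deposited counts. Reads of the 2 strands cannot be told apart without knowing whether the counting used strand.

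Vcam1 (ENSMUSG00000027962, chr3:116109949-116129688, minus strand) encodes the ligand of alpha 4 integrins, through which monocytes and lymphocytes hold on to endothelium. It had 111 and 93 counts in the controls and 155 and 199 in mice 3 and 4, or 8.35 and 6.94 CPM against 10.8 and 10.6 CPM. Mice 3 and 4 were close to each other and above both controls. The means were 7.65 ± 0.997 and 10.7 ± 0.176 CPM (SD, n = 2 in each), a difference of 39.7%. The log2 fold change was 0.48 ± 0.19 (SE, 95% interval 0.05 to 0.91), with an unadjusted p-value of 0.0324 and an adjusted p-value of 0.611 in the edgeR quasi-likelihood test. The DESeq2 Wald test gave an unadjusted p-value of 0.109 for Vcam1, and the edgeR value was 0.147 without control mouse 2, 0.106 without mouse 3 and 0.0806 without mouse 4. The antisense gene Gm43109 overlapping Vcam1 had 0 counts in every library.

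Icam2 (ENSMUSG00000001029, chr11:106377656-106388075, minus strand) encodes ICAM-2, a ligand of LFA-1 that resting endothelium carries and that cytokines do not typically induce. It had 47 and 45 counts in the controls and 41 and 62 in mice 3 and 4, or 3.54 and 3.36 CPM against 2.86 and 3.29 CPM. Its CPM was lower in both libraries labelled HuRhKO by a narrow margin, and the sign of its log2 fold change turned without scaling for library size (0.16). Icam2 had a log2 fold change of -0.16 ± 0.28 (SE, 95% interval -0.80 to 0.48), with an adjusted p-value of 0.925 in the edgeR quasi-likelihood test.

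Icam1 and Icam2 can be set against each other within a library as a ratio of levels per kilobase of exon. The ratio of Icam1 to Icam2 was 0.827 and 1.03 in control mice 1 and 2, and 1.95 and 1.39 in mice 3 and 4. The ratios of the groups did not overlap (0.928 ± 0.143 against 1.67 ± 0.392, SD, n = 2 in each). This follows from Icam1 being higher and Icam2 lower in both libraries labelled HuRhKO, and it is not a separate result. An exact two-sided permutation test over the 4 mice gave p = 0.333, which is the smallest it can give with 2 mice against 2.

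**Figure D1:**
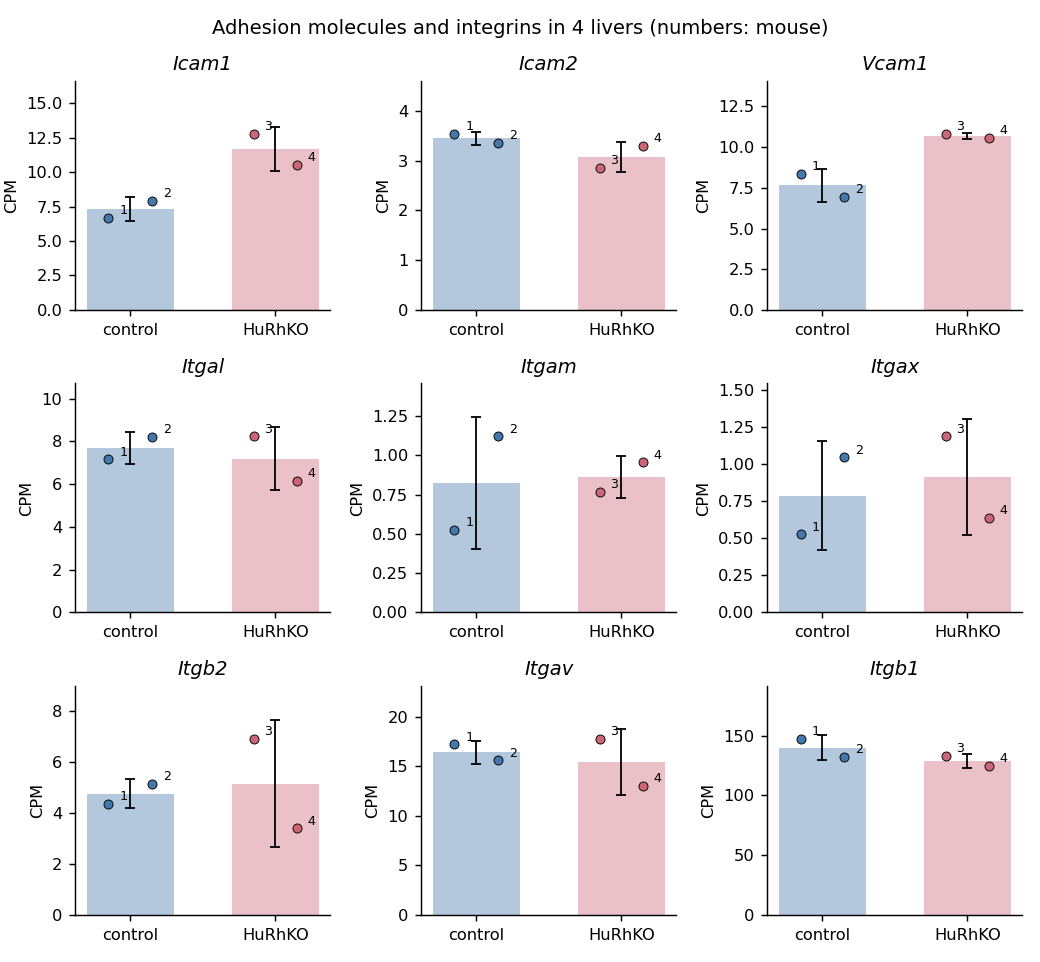
CPM of the 9 genes in each mouse, with control mice in blue and mice labelled HuRhKO in red, bars at the group means, error bars of 1 SD (n = 2) and vertical axes from 0 that differ between genes. Icam1 and Vcam1 lie above both controls in mice 3 and 4, Icam2 lies slightly below, and the groups overlap for the other genes.

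The leukocyte integrins did not separate the groups. Itgal (ENSMUSG00000030830, chr7:127296260-127335138, plus strand) encodes CD11a, the alpha subunit of LFA-1 on nearly all leukocytes. It had 95 and 110 counts in the controls and 118 and 116 in mice 3 and 4, or 7.15 and 8.21 CPM against 8.23 and 6.16 CPM. Mouse 3 was highest and mouse 4 lowest, so the 2 libraries labelled HuRhKO lay on either side of the controls. Itgal had a log2 fold change of -0.10 ± 0.22 (SE, 95% interval -0.61 to 0.41, adjusted p-value 0.946, edgeR quasi-likelihood test).

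Itgam (ENSMUSG00000030786, chr7:128062640-128118491, plus strand) encodes CD11b, the alpha subunit of Mac-1 on monocytes, macrophages and neutrophils. It had 7 and 15 counts in the controls and 11 and 18 in mice 3 and 4, or 0.527 and 1.12 CPM against 0.767 and 0.956 CPM. Both libraries labelled HuRhKO lay between the controls. By RT-PCR in livers of a larger set of male and female mice, the paper reported this gene, there named Cd11b, as significantly increased. Itgam had a log2 fold change of 0.07 ± 0.55 (SE), with a 95% interval from -1.19 to 1.34 that spans more than a doubling in either direction (adjusted p-value 0.986, edgeR quasi-likelihood test). The annotation has a protein-coding gene, Gm49368, over exons of Itgam on the same strand. Gm49368 has no entry in the deposited counts, and the counts of Itgam are uncertain to that extent.

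Itgax (ENSMUSG00000030789, chr7:128129547-128150657, plus strand), the neighbour of Itgam, encodes CD11c, carried by dendritic cells and by some macrophages. It had 7 and 14 counts in the controls and 17 and 12 in mice 3 and 4, or 0.527 and 1.05 CPM against 1.19 and 0.637 CPM. Each group held a low and a high library, and the groups overlapped. Its log2 fold change was 0.18 ± 0.58 (SE, 95% interval -1.16 to 1.52, adjusted p-value 0.966, edgeR quasi-likelihood test).

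Itgb2 (ENSMUSG00000000290, chr10:77530252-77565708, plus strand) encodes CD18, the beta subunit that Itgal, Itgam and Itgax share. It had 58 and 69 counts in the controls and 99 and 64 in mice 3 and 4, or 4.36 and 5.15 CPM against 6.91 and 3.40 CPM. Mouse 3 had the highest and mouse 4 the lowest level, with both controls between. Over the 4 mice its log2 fold change was 0.10 ± 0.35 (SE, 95% interval -0.70 to 0.90, adjusted p-value 0.969, edgeR quasi-likelihood test), and it was -0.50 without mouse 3 and 0.54 without mouse 4.

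The summed level per length of Itgal, Itgam and Itgax can be compared with that of the beta subunit they share. The ratio to Itgb2 was 0.911 and 1.00 in the controls and 0.730 and 1.13 in mice 3 and 4. The alpha subunits together were thus near the level of Itgb2 in every mouse, and the groups overlapped (exact two-sided permutation p = 1). Within the sum, Itgal exceeded Itgam by 10.4 and 5.61 times in the controls and by 8.20 and 4.93 times in mice 3 and 4.

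The 2 integrin subunits that many cell types carry were the most counted members. Itgav (ENSMUSG00000027087, chr2:83724397-83806916, plus strand) encodes the alpha v subunit, which binds vitronectin and latent TGF-beta with several beta subunits. It had 229 and 209 counts in the controls and 255 and 246 in mice 3 and 4, or 17.2 and 15.6 CPM against 17.8 and 13.1 CPM. Mouse 3 was highest and mouse 4 lowest. Between the groups the log2 fold change was -0.10 ± 0.19 (SE, 95% interval -0.52 to 0.33, adjusted p-value 0.937, edgeR quasi-likelihood test). Gm13684, which overlaps Itgav on the other strand, had 2, 0, 0 and 3 counts in mice 1 to 4.

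Itgb1 (ENSMUSG00000025809, chr8:128685654-128733200, plus strand) encodes the beta 1 subunit of the collagen, laminin and fibronectin receptors. It had 1959 and 1776 counts in the controls and 1907 and 2352 in mice 3 and 4, or 147 and 133 CPM against 133 and 125 CPM. Control mouse 1 was highest and mouse 4 lowest, and control mouse 2 lay just under mouse 3. Its interval was the narrowest of the 9 members. Its log2 fold change was -0.12 ± 0.13 (SE, 95% interval -0.42 to 0.18, adjusted p-value 0.873, edgeR quasi-likelihood test).

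**Figure D2:**
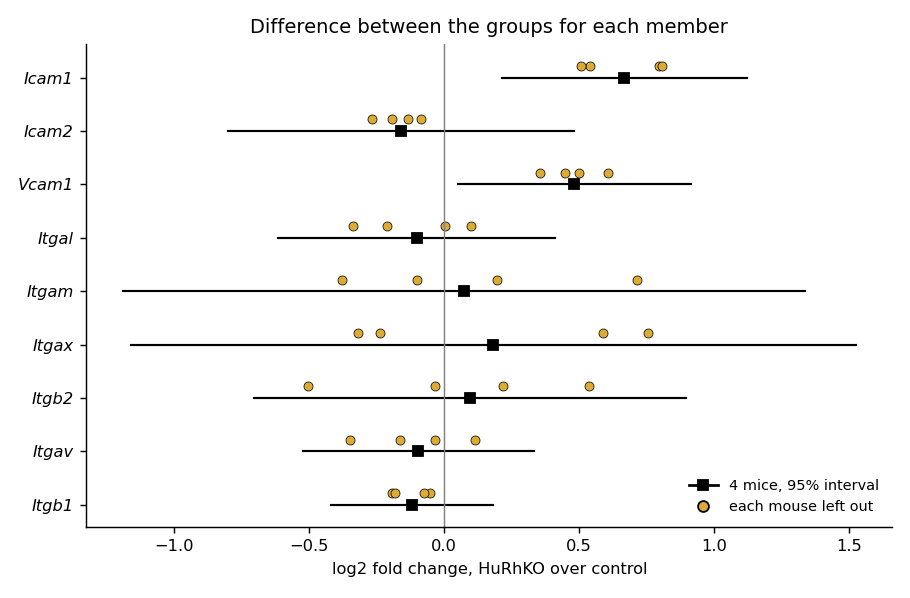
Log2 fold change of each of the 9 genes, HuRhKO over control, with squares for the fit to 4 mice, lines for its 95% interval and circles for the fits that leave out each mouse. The intervals of Icam1 (0.21 to 1.12) and Vcam1 (0.05 to 0.91) lie above 0 before adjustment for multiple tests, and those of the other 7 genes span 0.

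Counted together, 0 of the 9 members had an adjusted p-value under 0.05 in the edgeR quasi-likelihood test, where 0.0231% of the genes tested did, and the DESeq2 Wald test and limma-voom also called 0. At an unadjusted p-value under 0.05, edgeR gave 2 of the 9, Icam1 and Vcam1, both higher in the libraries labelled HuRhKO, against 7.43% of all genes tested with 4.04% higher and 3.39% lower. Neither reached a fold of 1.8, the size used in the study together with an unadjusted p-value under 0.05, which 2.12% of all genes tested met. The paper had named both genes as upregulated in its RNA-seq and reported Vcam1 as increased by RT-PCR too. The members were chosen with earlier results of these data known. The 2 genes are therefore not an independent excess over the share of all genes. The groups did not overlap for 3 of the 9 members, against 38.1% of all genes tested. The median log2 fold change was 0.07 over the 9 members and 0.00 over all genes tested, and 5 members were above 0 and 4 below it. The median was -0.18 without mouse 3, and 0 members then had an unadjusted p-value under 0.05 in edgeR.

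Between genes, levels can be compared per kilobase of exon. Itgb1 was highest, at 30.6 to 36.1 CPM per kilobase over the 4 mice, and stood clear of every other member. Icam1 followed at 1.54 to 2.93, Icam2 at 1.50 to 1.86, Itgb2 at 1.11 to 2.26, Itgav at 1.22 to 1.66, Itgal at 0.937 to 1.25 and Vcam1 at 0.783 to 1.22 CPM per kilobase. In that order, from Icam1 to Vcam1, the ranges of neighbours overlapped. Itgax, at 0.110 to 0.247, and Itgam, at 0.105 to 0.223 CPM per kilobase, formed a lower level and did not differ from each other beyond their spread. Per length of the longest transcript, Itgav and Vcam1 came before Itgb2.

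**Figure D3:**
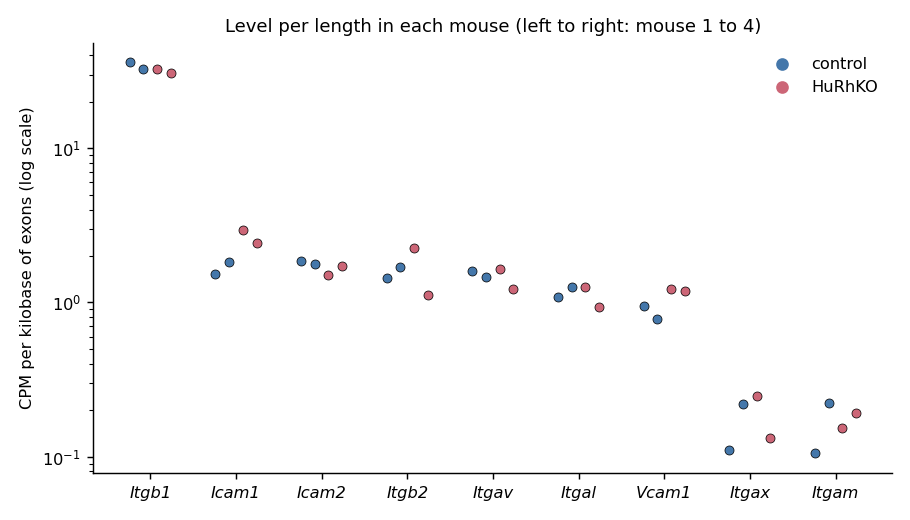
Level of each of the 9 genes in each mouse, in CPM per kilobase of exon on a log axis, ordered by the mean of the 4 mice, with control mice in blue and mice labelled HuRhKO in red. Itgb1 lies between 30.6 and 36.1, Itgax and Itgam lie under 0.25, and the other members lie between 0.783 and 2.93.

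The integrin members made up unequal shares of their families per length. Of the summed level of the 8 beta subunits, Itgb1 took 54.0% to 59.6% in the 4 mice and Itgb2 1.96% to 3.77%. Itgb5, which pairs with Itgav, took 35.0% to 41.6%. Of the 18 alpha subunits, Itgav took 10.3% to 13.0%, Itgal 7.93% to 9.97%, Itgax 0.889% to 1.93% and Itgam 0.850% to 1.78%. The largest alpha share was that of Itga5, the fibronectin receptor subunit that pairs with Itgb1, at 22.1% to 25.0%.

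The values of the markers of endothelial cells and leukocytes stand beside these results, and their part in them was not tested. Of the 12 endothelial markers, 11 had a log2 fold change above 0 and 0 an adjusted p-value under 0.05 (edgeR; also 0 at an unadjusted p-value under 0.05). Their sum was 394 and 342 CPM in the controls and 440 and 384 CPM in mice 3 and 4, so the ranges overlapped. Relative to that sum, Icam1 was 1.42-fold higher, Vcam1 1.25-fold higher and Icam2 0.794-fold the level of the controls. For each of the 3 the groups did not overlap (exact two-sided permutation p = 0.333 for each, the smallest possible). The 3 did not overlap in CPM either and were divided by the same sum, so this is not a separate result. Relative to Pecam1 and Cdh5, which encode junction proteins of endothelium, the log2 differences were 0.42 for Icam1, 0.24 for Vcam1 and -0.41 for Icam2. Dividing by a marker level shifts the log2 difference of every gene by about the same amount. The values of Icam1 and Vcam1 were thus lower on these scales than on that of the whole library, where they were 0.67 and 0.48. The value of Icam2, -0.16 on the whole library, was further from 0 on these scales, at -0.33 and -0.41.

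The 6 pan-leukocyte markers summed to 118 and 117 CPM in the controls and 135 and 115 CPM in mice 3 and 4, and 5 of the 6 had a log2 fold change above 0. Relative to that sum, the log2 differences were -0.19 for Itgal, 0.07 for Itgam, 0.14 for Itgax and -0.06 for Itgb2, and the groups overlapped for each. Relative to Ptprc, the CD45 gene, the log2 difference of Itgal was -0.33 and its groups did not overlap (exact two-sided permutation p = 0.333). On that scale the groups overlapped for Itgam (-0.07), Itgax (0.003) and Itgb2 (-0.19). The share of all genes that separate on this scale was not computed. Of the cells that carry Mac-1, neutrophils left little trace. Their 9 markers summed to between 1.54 and 3.36 CPM, and Ly6g was at 0 counts in every library, which allows up to 0.230 CPM in the shallowest. The Kupffer cell markers summed to 255 and 260 CPM in the controls and 290 and 274 CPM in mice 3 and 4, so both libraries labelled HuRhKO were above both controls. Of the 10 markers, 7 had a log2 fold change above 0 and 3 below it, Marco (-0.92), Adgre1 (-0.20) and Csf1r (-0.009). The sums of monocyte and recruited macrophage markers were also higher in both libraries labelled HuRhKO, at 34.6 and 42.3 CPM in the controls and 53.5 and 44.6 CPM in mice 3 and 4. Most of that sum was Lyz2, whose groups overlapped, at 22.4 and 30.2 CPM in the controls and 35.6 and 29.9 CPM in mice 3 and 4. Of the 6 markers tested, 5 were above 0 and 1, Ccr2 (-0.18), below it. Among single genes, 19.3% of all tested were higher in both libraries labelled HuRhKO than in both controls.

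**Figure D4:**
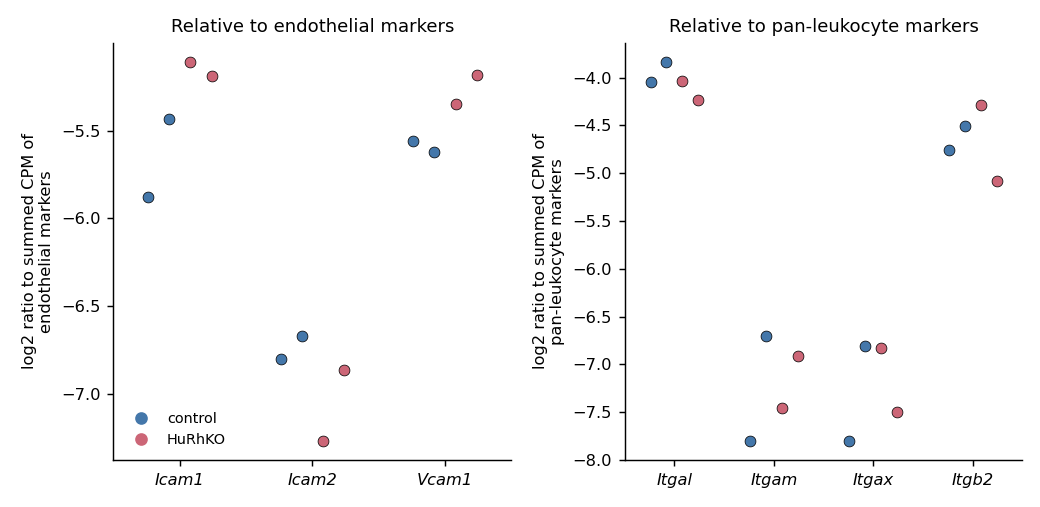
Log2 ratio of a gene's CPM to the summed CPM of endothelial markers (left) or of pan-leukocyte markers (right) in each mouse, with control mice in blue and mice labelled HuRhKO in red. Icam1 and Vcam1 lie higher and Icam2 lower in both mice labelled HuRhKO, and the groups overlap for the 4 leukocyte integrin genes.

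Around the members, 7 lists of the adhesion and integrin pathways held 95 genes that passed the filter of 113 listed. In these 95 genes edgeR gave 0 with an adjusted p-value under 0.05, and the median log2 fold change was 0.06. At an unadjusted p-value under 0.05, 3 were higher and 2 lower, where 4.04% and 3.39% of all genes tested were. Of the other vessel-wall and junction molecules, 9 of the 12 tested were above 0 and 3 below it. None of those 12 had an unadjusted p-value under 0.05, and the smallest, 0.0585 in edgeR, was that of Esam, an endothelial junction molecule, at 9.71 and 9.03 CPM in the controls and 11.5 and 12.8 CPM in mice 3 and 4. The selectin Sele, which endothelium makes when activated, had 3 counts in mouse 3 and 0 in the other mice and was not tested.

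Among the other integrin subunits, 10 alpha and 3 beta genes were tested and none had an unadjusted p-value under 0.05 in edgeR. The nearest was Itga10, a collagen receptor subunit that pairs with Itgb1, at 2.03 and 2.17 CPM in the controls and 1.47 and 0.956 CPM in mice 3 and 4 (log2 fold change -0.81, adjusted p-value 0.695, edgeR). Itgb5 was at 75.4 and 76.1 CPM in the controls and 81.8 and 83.9 CPM in mice 3 and 4 (log2 fold change 0.13, adjusted p-value 0.850, edgeR). Itga4, which with Itgb1 makes the receptor of VCAM-1, was at 3.24 and 4.55 CPM in the controls and 2.72 and 4.30 CPM in mice 3 and 4, and it is named here for that role after its values were seen.

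Among the other adhesion receptors of leukocytes, 1 of 8 tested genes had an unadjusted p-value under 0.05. This was Cd48, the ligand of CD2 and 2B4 on blood cells, with 24 and 19 counts in the controls and 11 and 15 in mice 3 and 4 (log2 fold change -1.03, adjusted p-value 0.660, edgeR). Of the 24 tested genes of integrin activation and linkage to actin, 15 were above 0 and 9 below it. Parva, an adaptor of integrin-linked kinase, had an unadjusted p-value of 0.0260 in edgeR, at 100 and 93.0 CPM in the controls and 72.6 and 79.2 CPM in mice 3 and 4 (log2 fold change -0.35, adjusted p-value 0.580).

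The matrix and plasma ligands held the 3 genes of these lists that were higher with an unadjusted p-value under 0.05 in edgeR, of 22 tested. Col4a1, a basement membrane collagen, was at 25.4 and 20.5 CPM in the controls and 34.5 and 31.2 CPM in mice 3 and 4 (log2 fold change 0.52, adjusted p-value 0.480). Spp1, osteopontin, a ligand of integrins with Itgav, was at 31.5 and 22.3 CPM in the controls and 34.8 and 41.9 CPM in mice 3 and 4 (log2 fold change 0.51, adjusted p-value 0.579). Col1a1, the fibrillar collagen chain, was at 9.26 and 10.5 CPM in the controls and 11.9 and 18.7 CPM in mice 3 and 4 (log2 fold change 0.63, adjusted p-value 0.580). All 3 lay above both controls in both mice labelled HuRhKO, which their choice by direction and p-value favours, and none passed adjustment over all genes.

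Of the 16 tested cytokines, receptors and NF-kB factors that induce endothelial adhesion molecules, 8 were above 0 and 8 below it, and 0 had an unadjusted p-value under 0.05 in edgeR. The smallest, 0.0809, was that of the interleukin 1 receptor Il1r1, at 56.4 CPM in control mouse 1 and 23.1, 19.5 and 28.4 CPM in mice 2, 3 and 4, so that control mouse 1 alone stood high. Tnf had between 1 and 3 counts in every library and was not tested.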

How the data were processed

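Total liver RNA of 2 control and 2 HuRhKO-labelled mice was sequenced, and each mouse was 1 replicate. The authors deposited counts of reads per gene, as whole numbers without normalization. The submitters' processing notes name RSEM and GRCm38. The aligner, the annotation release and the use of strand are not given in the sources used here. The name of each column gave its mouse, and 0 columns were left over. Of the 46603 identifiers, 46005 had a symbol and 598 were kept without. Among the listed genes, Cd99 was not found in the table and was not analysed here.

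Counts were scaled with TMM factors (0.957 to 1.04) after edgeR's filter on low counts (minimum 10, total 15). Groups were compared with the quasi-likelihood test of edgeR 4.0.16 in R 4.3.3, with Benjamini-Hochberg adjustment over the 13001 genes kept. A count of 0 allows up to 3 counts, or 0.152 to 0.230 CPM, and such limits cover counting error only. Levels per length used the union of exons of GENCODE M21. Exact permutation tests were run in scipy 1.17.1. Simulated data with known changes were used to test the fits.

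The genes named are the 9 members, Elavl1, the genes of each pathway list with an unadjusted p-value under 0.05 (at most 4) or else the smallest, the 2 most abundant of a marker list, and the 3 genes most like Icam1, Vcam1 and Itgb2. Other genes were chosen after their values were seen. The members and lists were chosen with earlier results of these data known. The alternatives were DESeq2 size factors, no scaling, no filter, the DESeq2 Wald test (version 1.42.0), limma-voom (version 3.58.1), each mouse left out, the longest transcript as length, and Pecam1 with Cdh5 or Ptprc as marker level.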

Additional observations from a re-analysis of the deposited data

How the results depend on the processing

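No member reached an adjusted p-value under 0.05 under any of the 9 alternatives to the edgeR test, and the smallest was 0.0790 for Icam1 without scaling. Icam1 stayed higher in the libraries labelled HuRhKO throughout (log2 fold change 0.51 to 0.97), as did Vcam1 (0.36 to 0.79). Without scaling, the deeper library of mouse 4 moved the median of all genes by 0.31, and Icam2 (0.16), Itgav (0.19), Itgal (0.19) and Itgb1 (0.19) changed sign. Relative to that median, Icam1 was at 0.65, Vcam1 at 0.48, Icam2 at -0.15 and Itgav, Itgal and Itgb1 at -0.12 each. The members' median was 0.36 without scaling and -0.027 in limma-voom, where Itgb2 was that median. The cause was not tested. With a mouse left out, the lone mouse of its group was assumed to vary like the other group. The log2 fold change then ran from -0.35 to 0.12 for Itgav, -0.38 to 0.71 for Itgam, -0.32 to 0.76 for Itgax, -0.34 to 0.10 for Itgal and -0.50 to 0.54 for Itgb2, and the members' median from -0.18 to 0.22. The members higher at an unadjusted p-value under 0.05 numbered 1 in the DESeq2 Wald test and 0 to 2 with a mouse left out.

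Of the pathway genes around the members, 13 were higher, 0 lower and 1 called at the adjusted threshold without scaling, with a median of 0.38. Without the filter 5 were higher, and the DESeq2 Wald test gave 1 lower. With a mouse left out, 1 to 8 were higher, 0 to 6 lower and 0 to 1 called, with a median of 0.022 to 0.089. The 8 higher arose without control mouse 1 and the 6 lower without control mouse 2. Of the marker genes, where the fit to all mice had 2 higher and 0 lower with a median of 0.14, 12 were higher, 1 lower and 1 called without scaling, with a median of 0.44. Without the filter 5 were lower, and the DESeq2 Wald test gave 1 higher. With a mouse left out, 0 to 9 were higher, 0 to 6 lower and 0 to 1 called, with a median of 0.039 to 0.18. The 9 higher and 6 lower arose without control mouse 2.

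No paired analysis was possible because the control mice are numbered 1 and 2 and the others 3 and 4, so the groups share no number. Itgam and Itgax had 7 to 18 counts in each library, and the parts of depth and of the spread between mice in their wide intervals were not tested.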

Other observations

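Some genes followed a member closely over the 4 mice. Likeness was measured as the root mean square difference of centred log2 CPM over the 4 mice, among 11160 genes with a mean log2 CPM of at least 1. With 4 points, likeness of this size is a description of these libraries. The gene nearest to Icam1 was Atf5, a transcription factor of the stress response, at 0.027, with 3421 and 3913 counts in the controls and 6768 and 7597 in mice 3 and 4. B3gnt2, a glycosyltransferase that extends lactosamine chains, followed at 0.052, and Ntn1, the guidance factor netrin 1, at 0.055. Vcam1 was the 486th gene in that order, at 0.207, so many genes had a pattern nearer to Icam1 than that of Vcam1.

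Nearest to Vcam1 was Necap2, an endocytic adaptor, at 0.014, with 116 and 97 counts in the controls and 161 and 212 in mice 3 and 4. Gpatch3 and Mfsd12 followed at 0.029 each. Nearest to Itgb2 was B3galt1, a galactosyltransferase, at 0.036, followed by Selplg, which encodes the selectin ligand PSGL-1 of leukocytes, at 0.073. Selplg had 28 and 37 counts in the controls and 54 and 36 in mice 3 and 4, so it shared with Itgb2 the high level in mouse 3. Arl4c, a small GTPase, followed at 0.082.

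The summed markers of T and NK cells lay between 3.69 and 5.52 CPM, and those of dendritic cells between 8.12 and 13.0 CPM. The B cell markers summed to 2.26 CPM in control mouse 1 and to 7.24, 6.63 and 5.73 CPM in mice 2, 3 and 4. The platelet markers lay between 3.24 and 4.26 CPM. The stellate cell markers, led by Ecm1 and Dcn, were far higher, between 327 and 398 CPM. Of the 69 marker genes tested, 2 had an unadjusted p-value under 0.05 in edgeR, where 7.43% of all genes tested did, and 0 an adjusted one. Both of these 2 genes are named after their values were seen. Trem2, a receptor of lipid-laden macrophages, had 4 and 2 counts in the controls and 12 and 15 in mice 3 and 4. Col3a1, a fibrillar collagen, was at 24.1 and 26.5 CPM in the controls and 31.2 and 44.8 CPM in mice 3 and 4.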
